A study of Mus musculus with 6 samples.

Results

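The matrix proteases and their inhibitors described here are the genes named Adam, Adamts, Adamtsl, Mmp or Timp in read counts of mouse liver RNA. They were chosen by symbol alone, leaving out rows with fewer than 10 reads over the 6 libraries. Of 56674 rows in the count table, 85 carried such a symbol and 56 passed that limit: 17 of 34 Adam genes, 15 of 19 Adamts genes, all 5 Adamtsl genes, 16 of 23 Mmp genes and 3 of 4 Timp genes. The 29 rows left out included 21 without a read in any library, Timp4 among them. The members nearest the limit were Adamts8 with 11 reads, Mmp8 with 13, Adam21 with 14 and Adamts17 with 15 in all, and the rows just under it were Mmp25 with 9 reads, Mmp16 with 5, and Adam5 and Adamts16 with 3 each.

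The livers were those of male C57BL/6 mice kept for 71 weeks. The 3 control libraries are of mice on normal chow, and the 3 PB-MP libraries are of mice whose chow held polypropylene black microplastic, of which the labels give neither the dose nor the particle size. No genotype other than the strain is given, and the series asks what long exposure to PB-MP does to gene expression in the liver. The labels number the libraries 1 to 3 in each group but do not say that each is a separate animal, so every p-value rests on library-to-library spread, part of which may be technical.

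These genes encode enzymes and inhibitors that remodel the matrix around cells. The MMPs (matrix metalloproteinases) cleave collagens, laminins and other matrix proteins, some as secreted enzymes and some anchored in the plasma membrane. Most ADAMs are membrane proteases that release the outer part of growth factors, cytokines and receptors, while the ADAMTS enzymes are secreted and act on proteoglycans, procollagens, microfibril proteins and von Willebrand factor. ADAMTS-like proteins share the ancillary domains of the ADAMTS enzymes without the protease, and the TIMPs are small secreted proteins that block the active site. In liver, stellate cells, endothelial cells, macrophages and hepatocytes all contribute, and the balance between proteases and TIMPs is a textbook feature of fibrosis and its resolution.

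The proteases share a zinc-binding site, in which histidine side chains hold the catalytic zinc and a glutamate takes part in catalysis. In the coding sequences of GENCODE M21 (build GRCm38), a script found this metzincin consensus in frame, with the usual glycine codon, in 37 of the 56 members, and with another codon at the glycine position in 5, namely Adamts1, Adamts4, Adamts8, Adamts9 and Adamts15. The other 14 held no such site: the 3 Timps, the 5 Adamtsl genes, Adam2, Adam4, Adam11, Adam22, Adam23 and Adam32. The sites below belong to the 3 Adamts genes and the Adam gene with the lowest p among higher values in PB-MP that carry a site, to the 3 proteases of highest level per length, and to Adamts1 as an example of the other codon. Each is written 5′ to 3′ on the coding strand with the histidine and glutamate codons in capitals.
Adamts6: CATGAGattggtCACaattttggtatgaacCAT
Adamts10: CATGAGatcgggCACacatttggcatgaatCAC
Adamts7: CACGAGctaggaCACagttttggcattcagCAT
Adam33: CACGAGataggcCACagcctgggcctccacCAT
Mmp19: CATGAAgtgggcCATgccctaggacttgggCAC
Adam9: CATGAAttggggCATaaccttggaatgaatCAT
Mmp14: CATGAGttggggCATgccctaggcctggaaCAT
Adamts1: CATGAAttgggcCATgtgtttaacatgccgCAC

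On GRCm38, the site lies within 1 exon of Adam33 at chr2:131055130-131055162 (minus strand), of Mmp19 at chr10:128795673-128795705 (plus), of Adam9 at chr8:24990326-24990358 (minus) and of Mmp14 at chr14:54437627-54437659 (plus). In the Adamts genes an intron interrupts it, so that its bases run from 104352847 to 104366809 of chromosome 13 in Adamts6, from 33538157 to 33538279 of chromosome 17 in Adamts10, from 90179456 to 90180640 of chromosome 9 in Adamts7 (all plus strand) and from 85799191 to 85799545 of chromosome 16 in Adamts1 (minus strand). Adam1a and Adam1b, neighbours on chromosome 5, carry the identical site, and reads of these paralogs may be shared, so their values are uncertain. Adam1a, of 7508 exonic bases, also has overlaps with Gm42878 and Mapkapk5 on the same strand that add up to 6584 bases. On the opposite strand, Tmem116 overlaps 848 of its bases.

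Library totals ran from 68357478 to 112566641 reads, and levels are given as CPM, read counts scaled to library size, with TMM factors. At these depths 3 reads, taken as the lowest readable level, equal 0.0285 to 0.0495 CPM. The members together took 0.0234% to 0.0325% of the reads, and 41 of the 56 had reads in every library. Measures of the libraries themselves moved with diet: mitochondrial reads made up 14.9% to 16.4% of the controls and 9.24% to 11.3% of the PB-MP libraries, and 23095 to 23872 rows had reads in the controls against 24865 to 25133 in the PB-MP libraries. The TMM factors also separated by diet, at 0.887 to 0.961 in the controls and 1.04 to 1.12 in PB-MP, so the direction of small differences depends on the scaling. With ribosomal RNA and mitochondrial rows left out of the fit, an alternative added after the data were seen, the count of members at an unadjusted p below 0.05 was 6, as in the full fit. Across the members, control 2 held the highest value of 13 of the 43 tested and PB-MP 1 and PB-MP 3 the lowest of 11 each. PB-MP 3 also stood apart in summed macrophage markers, as given further on. The main counts are repeated without control 2 and PB-MP 3, a pair that stands out in these same values, while PB-MP 1 was kept. That removal is not independent of the data, and with it 23.8% of all genes were at an unadjusted p below 0.05, against 12.1% in the full fit.

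Per kilobase of exon, the liver levels were led by Mmp19, a secreted MMP that acts on basement membrane proteins, at a mean of 14.9 CPM per kb over the 6 libraries. Adam9, a shedding protease, followed at 10.2 CPM per kb, and the membrane-type enzymes Mmp14 and Mmp15 at 5.81 and 5.20. Adam10, the main sheddase of Notch receptors, stood at 3.78 CPM per kb and Timp2, the first of the inhibitors, at 3.18. Adamts1, Timp3 and Adam17 came next, at 1.65, 1.62 and 1.61 CPM per kb. The ranges over the 6 libraries overlapped for all neighbours in this order. Compared within libraries, Mmp15 was above Adam10 in 6 of 6, by 1.04 to 2.29 times, and Timp2 above Adamts1 in 6 of 6, by 1.34 to 2.96 times, while the order of every other pair of neighbours among these 9 turned in at least 1 library. All other tested members lay below 1 CPM per kb, led by Adamts13 at 0.860. The 6 members of highest CPM held 69.6% of the summed CPM of all 56.

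**Figure D1:**
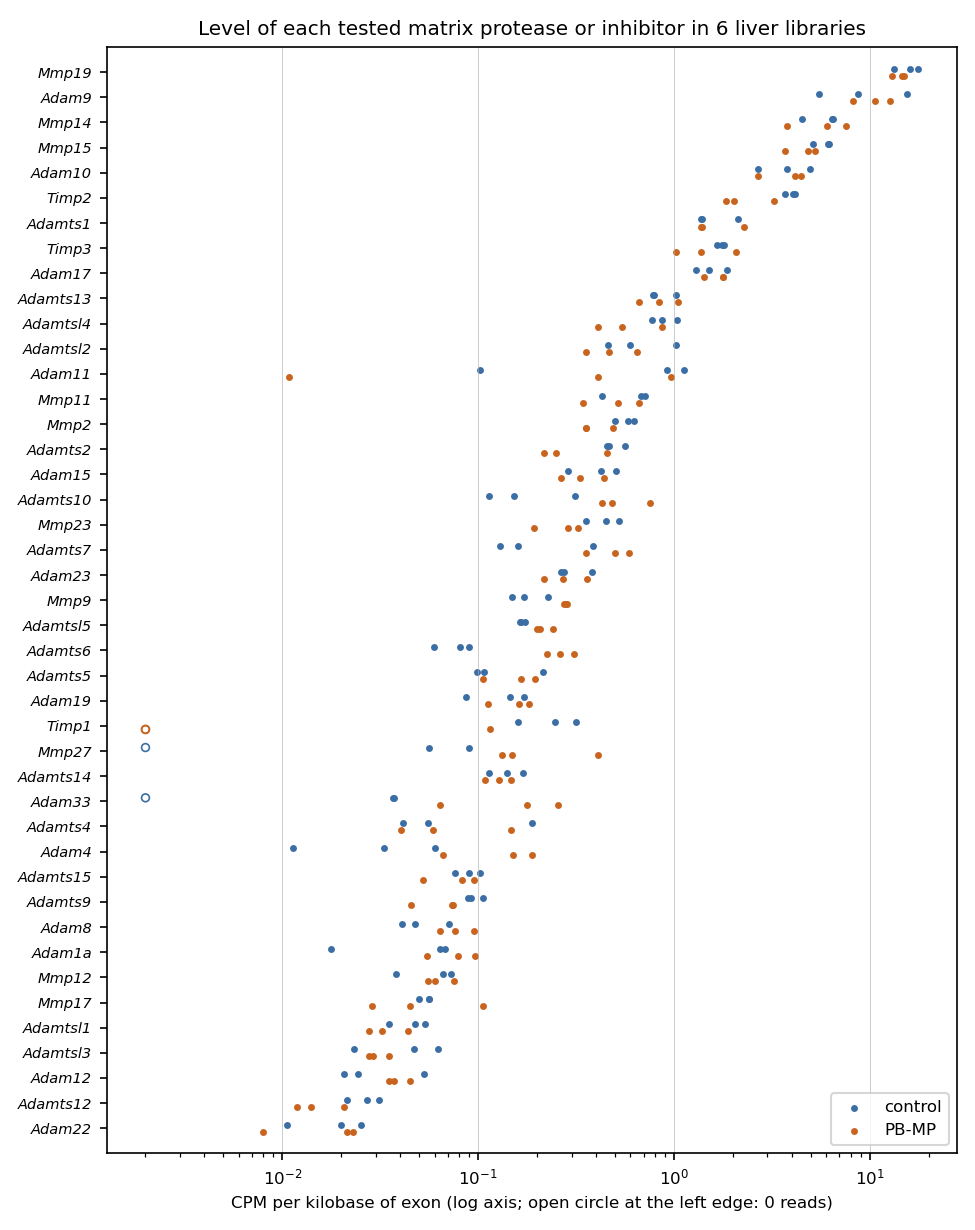
Level of each of the 43 tested members in CPM per kilobase of exon (log axis), 1 point per library, blue for the 3 control and orange for the 3 PB-MP libraries, with open circles at the left edge for 0 reads. Mmp19 leads at a mean of 14.9 CPM per kb. The groups are separate for 14 members (32.6%, against 19.8% of all genes tested), among them Adamts6 and Adamts10 (PB-MP above control) and Timp2 (below).

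Between the diets, the members with the lowest p were Adamts6 and Adamts10, with more reads in every PB-MP library than in any control, and Timp2, with a lower level in every PB-MP library. None of the 43 tested members passed the edgeR quasi-likelihood test at a Benjamini-Hochberg adjusted p below 0.05, where 0% of the 17871 genes tested passed, and the lowest adjusted p of a member was 0.207. At an unadjusted p below 0.05 there were 6 members, 14% of those tested against a background of 12.1%: 5 higher in PB-MP (background 7.35%) and 1 lower (background 4.74%). With libraries scaled by size only, these were 7 higher and 0 lower (background 15.8% in both directions together), and the near-zero estimates of Mmp14, Mmp19, Adam10 and Adamts13 turned sign. For 14 members the groups did not overlap, 32.6% against a background of 19.8%, with 7 higher (background 11.4%) and 7 lower (background 8.49%). The members' median log2 fold change was -0.08 beside 0.01 for all genes tested, with 18 estimates above 0 and 25 below. Limma-voom also called 0 members (9 at an unadjusted p below 0.05, background 13.7%), while DESeq2 called 2 of 56, Adamts6 and Adamts10, against 513 of 30481 genes (1.68%). Without control 2 and PB-MP 3 the groups did not overlap for 24 of 43 members (background 59.3%) and 4 were at an unadjusted p below 0.05 (background 23.8%). Without PB-MP 3 alone, 14 of 43 members did not overlap (background 35.1%). In both settings the share of members was below the background, so the excess without overlap in the full fit was not stable.

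**Figure D2:**
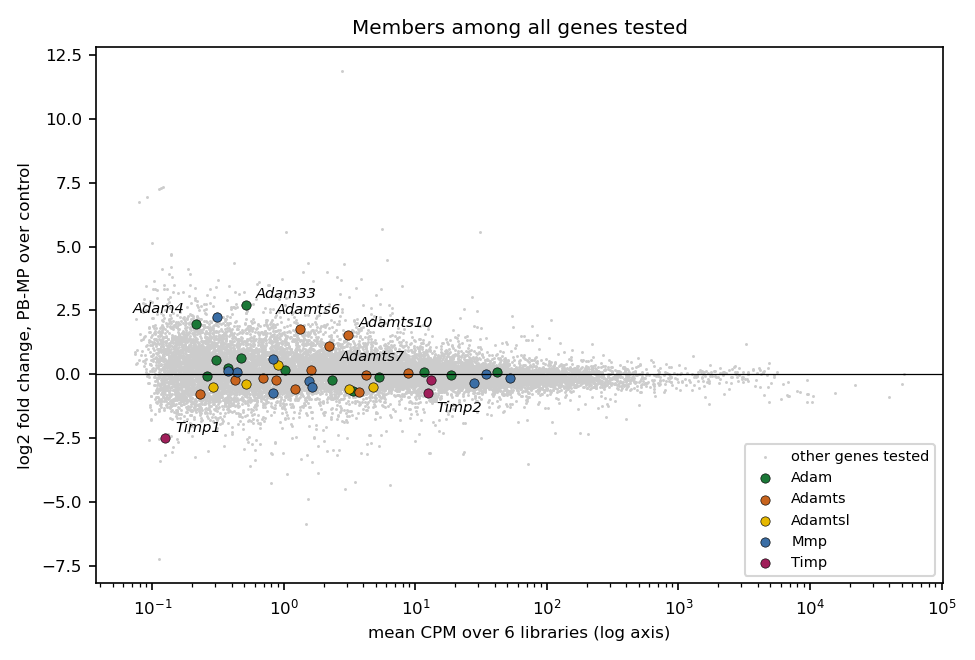
Log2 fold change (PB-MP over control) against mean CPM over the 6 libraries (log axis) for the 17871 genes tested, with the 43 tested members coloured by family and the 6 at an unadjusted p below 0.05 and Timp1 labelled. Adamts6, Adamts10, Adamts7, Adam33 and Adam4 lie above 0, Timp2 below, and most members lie within the cloud around 0.

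**Figure D3:**
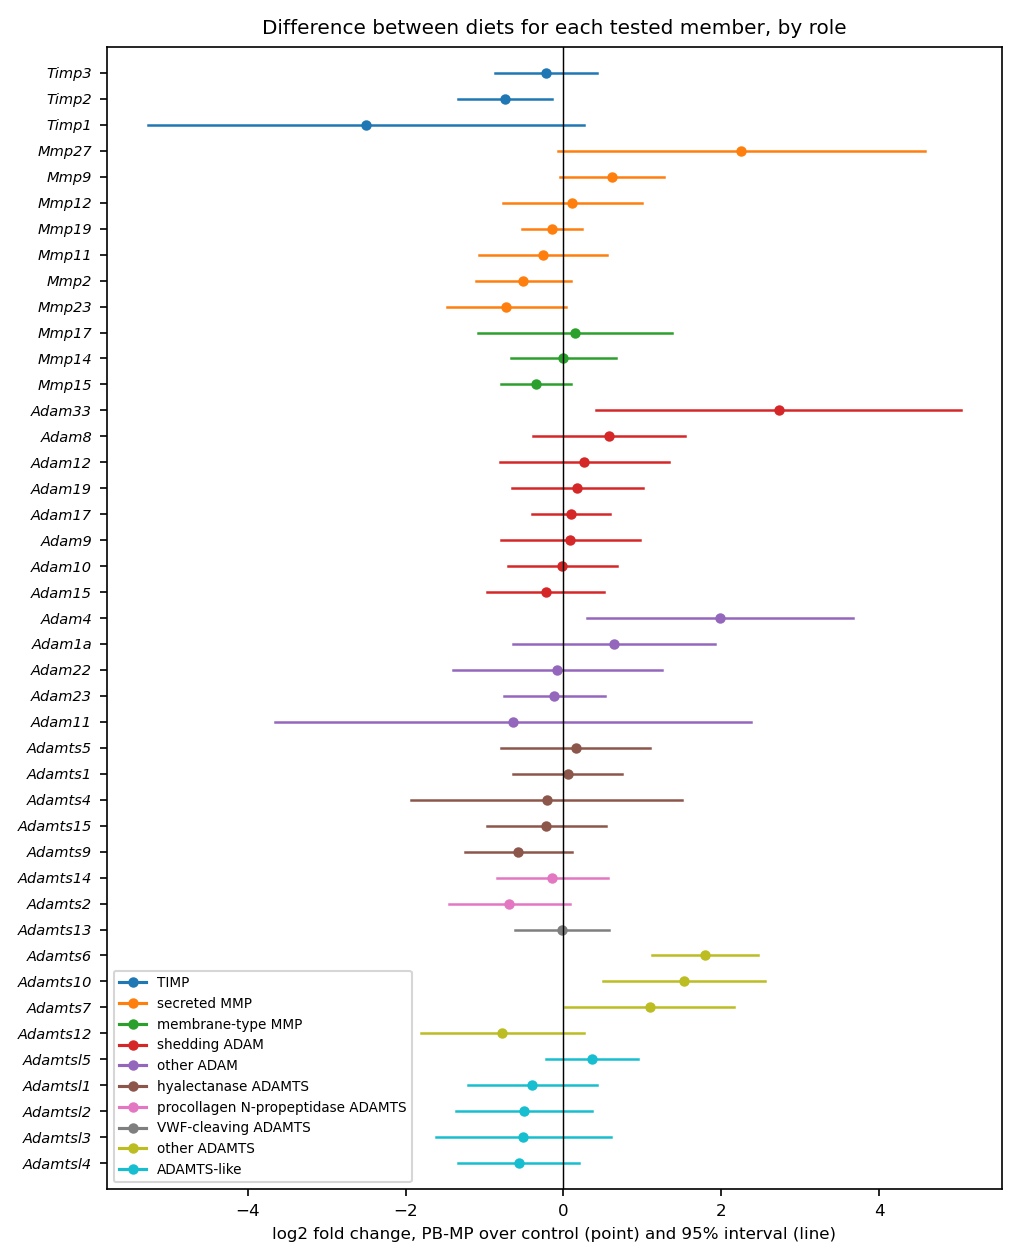
Log2 fold change (point) and 95% interval (line) of each tested member, PB-MP over control, ordered and coloured by role. The intervals of 6 members exclude 0 before adjustment, and 15 of the 43 lie wholly within -1 to 1.

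The clearest separation was in Adamts6 and Adamts10, 2 of the 5 ADAMTS enzymes outside the proteoglycan, procollagen and von Willebrand factor groups. Adamts6, a secreted protease related to Adamts10, had 51, 38 and 49 reads in control 1, 2 and 3 and 161, 149 and 234 in PB-MP 1, 2 and 3. Its CPM was 0.700, 0.627 and 0.466 in the controls and 2.04, 1.76 and 2.40 in PB-MP. All PB-MP libraries of Adamts6 lay well above all controls, with means of 0.598 ± 0.120 and 2.07 ± 0.320 CPM (SD, n = 3 each). The log2 fold change was 1.79 ± 0.28 (SE, 95% interval 1.13 to 2.46) with an edgeR adjusted p of 0.207 and a DESeq2 adjusted p of 0.000235. Leaving out any single library gave 1.63 to 1.92.

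Adamts10 encodes a protease of fibrillin microfibrils whose human counterpart is mutated in Weill-Marchesani syndrome. Its CPM was 1.26, 2.59 and 0.941 in control 1, 2 and 3 and 3.55, 4.0 and 6.22 in PB-MP 1, 2 and 3. The groups were separate, with control 2 the highest of the controls and PB-MP 3 the highest of all, and the means were 1.6 ± 0.874 and 4.59 ± 1.43 CPM (SD, n = 3 each). The log2 fold change of Adamts10 was 1.53 ± 0.44 (SE), with an edgeR adjusted p of 0.280 and a DESeq2 adjusted p of 0.0262.

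Adamts7 and Adamts12 are close relatives that cleave cartilage oligomeric matrix protein. Adamts7 stood at 0.810, 1.01 and 2.42 CPM in the controls and 2.23, 3.69 and 3.14 CPM in PB-MP, so that control 3 lay above PB-MP 1. Its log2 fold change was 1.09 ± 0.46 (SE, edgeR adjusted p of 0.411), and it was 1.73 without control 3 and 0.80 without control 1. In the annotation, 122 exonic bases of Adamts7 overlap Tbc1d2b on the opposite strand. Adamts12 differed in the opposite direction, with 0.233, 0.297 and 0.342 CPM in the controls, each above the 0.152, 0.130 and 0.226 CPM of PB-MP, at a log2 fold change of -0.77 ± 0.44 (SE). Adamts17, the fifth enzyme outside those groups, had too few reads to test. Summed over the 5 genes, the level was 3.05, 4.52 and 4.17 CPM in the controls and 8.03, 9.59 and 12.1 CPM in PB-MP, without overlap. Most of that sum was Adamts10, Adamts7 and Adamts6, so it does not describe all 5 genes.

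**Figure D4:**
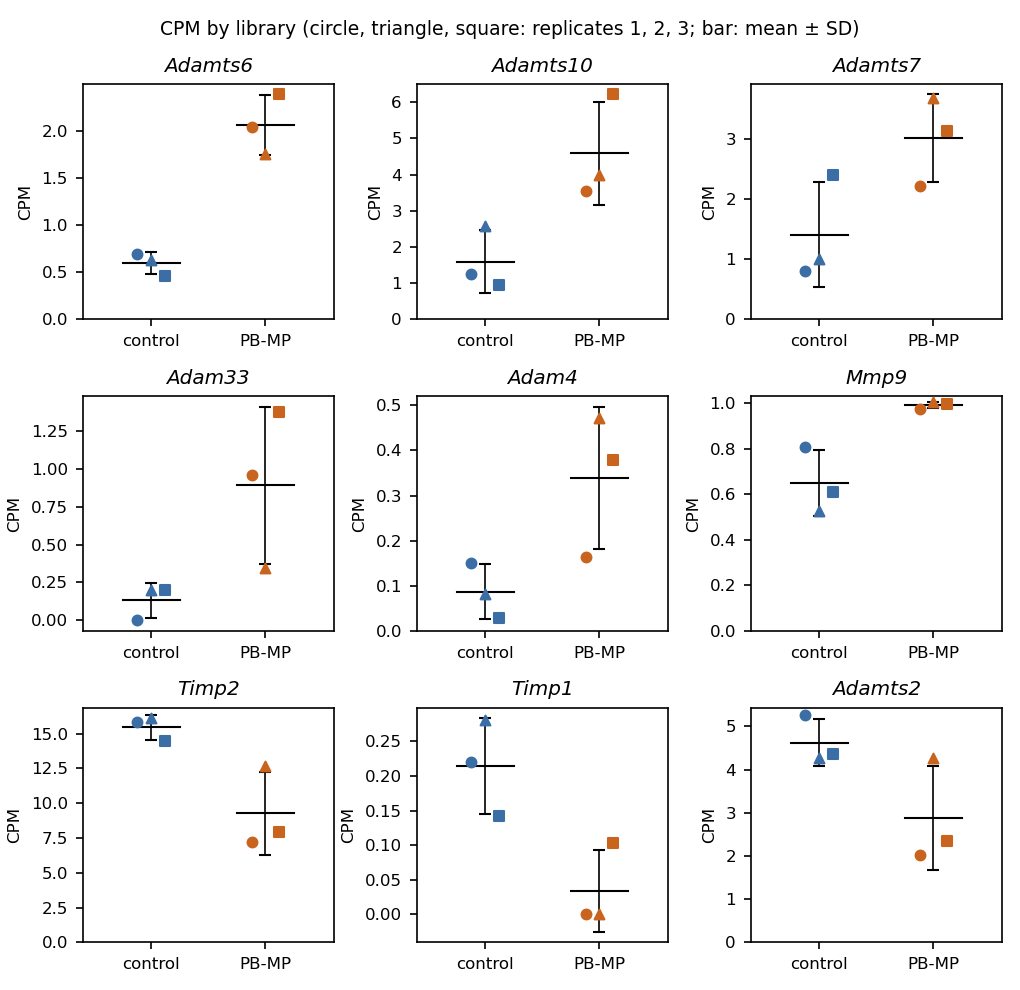
CPM of 9 members in each library (circle, triangle and square for replicates 1, 2 and 3; blue control, orange PB-MP) with the group mean and SD as bars. PB-MP lies wholly above control for Adamts6, Adamts10, Adam33, Adam4 and Mmp9 and wholly below for Timp2, Timp1 and Adamts2, while Adamts7 overlaps.

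The other ADAMTS groups showed small differences. Adamts1, which cleaves versican and aggrecan, had 7.27, 11.2 and 7.35 CPM in the controls and 7.28, 12.1 and 7.34 CPM in PB-MP. Its groups overlapped almost completely, library 2 of each group being the high one, and the log2 fold change was 0.05 ± 0.29 (SE, 95% interval -0.64 to 0.74). Among the other versican and aggrecan proteases, Adamts9 had 1.39, 1.6 and 1.34 CPM in the controls and 1.10, 1.12 and 0.687 CPM in PB-MP, without overlap, at a log2 fold change of -0.57 ± 0.29. The groups of Adamts4, Adamts5 and Adamts15 overlapped. Of this group of 5 tested genes 0 were at an unadjusted p below 0.05, and the median log2 fold change was -0.21.

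Adamts2 and Adamts14 remove the N-propeptide of fibrillar procollagens. Adamts2 had 5.26, 4.26 and 4.36 CPM in the controls and 2.03, 4.26 and 2.34 CPM in PB-MP. PB-MP 2 equalled control 2 to 3 significant digits, so the count of this gene among those without overlap rests on a smaller difference than the printed values show. The log2 fold change of Adamts2 was -0.69 ± 0.33 (SE), and that of Adamts14 was -0.14 ± 0.30.

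Adamts13 cleaves von Willebrand factor and is made in liver chiefly by stellate cells. It stood at 5.02, 3.86 and 3.89 CPM in the controls and 3.28, 5.19 and 4.15 CPM in PB-MP. The groups overlapped, with a log2 fold change of -0.02 ± 0.25 (SE, 95% interval -0.61 to 0.58). Among the ADAMTS-like genes, Adamtsl5 had 0.823, 0.776 and 0.780 CPM in the controls and 0.976, 1.13 and 0.944 CPM in PB-MP, without overlap, at a log2 fold change of 0.36 ± 0.25. The other 4 all had estimates below 0 and overlapping groups, from -0.39 for Adamtsl1 to -0.57 for Adamtsl4.

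All 3 TIMP estimates lay below 0, under each scaling tried, but not all stayed clear of it. Over the alternatives run, the estimate nearest 0 was -0.53 for Timp2 and -0.0057 for Timp3, the latter being no difference. Timp2, which blocks MMPs and also takes part with Mmp14 in activating pro-MMP2, had 15.8, 16.2 and 14.4 CPM in control 1, 2 and 3 and 7.19, 12.7 and 7.94 CPM in PB-MP 1, 2 and 3. The controls lay close together and above every PB-MP library, PB-MP 2 being the nearest to them, and the means were 15.5 ± 0.906 and 9.27 ± 2.97 CPM (SD, n = 3 each). The log2 fold change was -0.74 ± 0.25 (SE, 95% interval -1.34 to -0.14) with an unadjusted p of 0.0220 and an edgeR adjusted p of 0.338. With single libraries left out it ran from -1.03 (without PB-MP 2) to -0.59 (without PB-MP 1). Without PB-MP 1 or without control 1, 0 members, Timp2 included, were lower at an unadjusted p below 0.05.

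Timp1, the TIMP best known for its induction in injured and fibrotic liver, was near the lowest readable level here. It had 16, 17 and 15 reads in the controls and 0, 0 and 10 in PB-MP, or 0.220, 0.281 and 0.143 CPM against 0, 0 and 0.103 CPM. The groups did not overlap, but the counts are too low for a stable ratio: the fitted log2 fold change of -2.50 ± 1.17 (SE) had a 95% interval from -5.27 to 0.27 and an edgeR adjusted p of 0.447. A count of 0 allows up to 0.0380 CPM in PB-MP 1 and 0.0355 CPM in PB-MP 2.

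Timp3 is bound to the matrix and inhibits ADAM17 as well as MMPs. It had 13.5, 14.3 and 14.7 CPM in the controls and 11.2, 17.0 and 8.35 CPM in PB-MP, which spread to both sides of the controls. The log2 fold change was -0.22 ± 0.28 (SE), and -0.01 without PB-MP 3. Syn3 overlaps 1733 exonic bases of Timp3 on the opposite strand, and since the strand setting of the counting is not given, reads of the pair cannot be told apart.

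The summed level of the 3 TIMP genes was 29.6, 30.7 and 29.3 CPM in the controls and 18.4, 29.7 and 16.4 CPM in PB-MP. PB-MP 2 lay inside the range of the controls, and the other PB-MP libraries lay below it. The log2 ratio of the group means was -0.47, with -0.78 without PB-MP 2 and -0.32 without PB-MP 3. With libraries scaled by size only it was -0.26.

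The MMPs with the most reads differed little. Mmp19 had 56.8, 46.9 and 62.6 CPM in the controls and 52.8, 51.8 and 45.9 CPM in PB-MP. Its range over the 6 libraries was the narrowest of the tested members, and the log2 fold change was -0.14 ± 0.16 (SE, 95% interval -0.53 to 0.24). On the opposite strand, Tmem198b and Gm47093 overlap 1001 of its exonic bases. Mmp14, the membrane-type enzyme that cleaves fibrillar collagen and activates pro-MMP2, had 38.7, 38.4 and 26.9 CPM in the controls and 36.0, 45.2 and 22.5 CPM in PB-MP. Replicate 3 was the low library of Mmp14 in both groups, and the log2 fold change was 0.00 to 2 decimals (SE 0.28, 95% interval -0.67 to 0.66). Mmp15, another membrane-type enzyme, had 33.3, 27.8 and 33.1 CPM in the controls and 26.0, 28.2 and 19.9 CPM in PB-MP, with overlap and a log2 fold change of -0.35 ± 0.19.

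Of the gelatinases, Mmp2, made by stellate cells and fibroblasts, had 1.96, 2.11 and 1.68 CPM in the controls and 1.2, 1.64 and 1.2 CPM in PB-MP. All PB-MP libraries of Mmp2 lay below all controls, PB-MP 2 by little, at a log2 fold change of -0.51 ± 0.25 (SE, edgeR adjusted p of 0.470). Mmp9, stored in neutrophil granules and also made by macrophages, had 0.810, 0.528 and 0.609 CPM in the controls and 0.976, 1.0 and 0.995 CPM in PB-MP. Here PB-MP lay above control, with means of 0.649 ± 0.145 and 0.992 ± 0.0145 CPM (SD, n = 3 each) and a log2 fold change of 0.61 ± 0.28 (SE, edgeR adjusted p of 0.440).

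A further pair of MMPs without overlap differed in opposite directions. Mmp23 had 1.06, 1.22 and 0.837 CPM in the controls and 0.672, 0.449 and 0.759 CPM in PB-MP, at a log2 fold change of -0.72 ± 0.32 (SE). Mmp27 had few reads, 0, 12 and 13 in the controls and 23, 28 and 88 in PB-MP. In CPM these were 0, 0.198 and 0.124 in the controls and 0.292, 0.331 and 0.903 in PB-MP. Its log2 fold change was 2.25 ± 0.99 (SE), with a 95% interval from -0.07 to 4.58 and an edgeR adjusted p of 0.425. Over all 16 Mmp genes the summed level was 135, 120 and 129 CPM in the controls and 120, 132 and 95.1 CPM in PB-MP, with overlap.

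The shedding ADAMs with most reads overlapped between the diets. Adam10 had 13.2, 24.2 and 18.6 CPM in the controls and 21.9, 20.4 and 13.2 CPM in PB-MP, with a log2 fold change of -0.02 ± 0.29 (SE, 95% interval -0.70 to 0.67). Adam17, which releases TNF and EGF receptor ligands, had 10.8, 13.4 and 9.32 CPM in the controls and 12.7, 12.7 and 10.2 CPM in PB-MP, with a log2 fold change of 0.09 ± 0.21 (95% interval -0.40 to 0.59). Both intervals exclude a doubling of the level in either direction. Adam9 had 22.6, 63.8 and 35.8 CPM in the controls and 43.5, 52.1 and 33.8 CPM in PB-MP. Its controls alone spanned the whole PB-MP range, and the log2 fold change was 0.08 ± 0.37 (SE).

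Among the 13 tested ADAMs, 2 were without overlap between the diets, where 19.8% of all genes tested were, and both had few reads. Adam33, a membrane protease known as an asthma susceptibility gene in humans, had 0, 12 and 21 reads in the controls and 76, 29 and 134 in PB-MP, or 0, 0.198 and 0.200 CPM against 0.964, 0.343 and 1.37 CPM. PB-MP 2 was the low library of its group, and the log2 fold change was 2.73 ± 0.98 (SE, 95% interval 0.42 to 5.04, edgeR adjusted p of 0.352). Adam4, best known from testis, had 11, 5 and 3 reads in the controls and 13, 40 and 37 in PB-MP, or 0.151, 0.0825 and 0.0285 CPM against 0.165, 0.473 and 0.380 CPM. PB-MP 1 lay just above control 1, and the log2 fold change was 1.98 ± 0.71 (SE, edgeR adjusted p of 0.354). Without control 1 it was 2.67, and without control 3 it was 1.51.

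Adam11, Adam22 and Adam23 encode ADAMs without a working protease, known as surface ligands and receptors in the nervous system. Among the 40 tested members with reads in every library, Adam11 was the least even, with 0.576, 5.25 and 6.38 CPM in the controls and 2.32, 5.48 and 0.0615 CPM in PB-MP. High and low libraries occurred in both groups, and the log2 fold change of -0.64 ± 1.28 (SE) is correspondingly uninformative. Adam23 had 4.72, 6.82 and 4.90 CPM in the controls and 3.87, 6.47 and 4.83 CPM in PB-MP, a difference of -0.12 ± 0.27 on the log2 scale.

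The 13 members below the filter for testing had 11 to 47 reads over the 6 libraries and never more than 0.528 CPM, reached by Mmp3 in control 2. That stromelysin gene had 32 reads in control 2, 3 each in PB-MP 1 and PB-MP 3 and none in the others. Mmp21 had 11 and 8 reads in PB-MP 1 and PB-MP 2 and none elsewhere, and all 13 reads of the neutrophil collagenase gene Mmp8 came from PB-MP 3. In DESeq2, which fitted them too, Mmp21 had an unadjusted p of 0.0485 and no adjusted p, and none of the other 12 was below 0.05. Counts this low allow no stable ratio.

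Split by the zinc site, the 27 tested members with the site and its glycine codon had a median log2 fold change of 0.09, with 15 estimates above 0 and 12 below. The 12 tested members without a site, which are the TIMPs, the ADAMTS-like genes and 4 ADAMs, had a median of -0.45, with 2 above and 10 below. The 4 tested members with another codon had a median of -0.21. The difference between these classes was not tested, since members are not replicates.

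Other genes of the system were read from lists of activators, partners and substrates, in which edgeR called 0 genes. As background for the counts below, 7.35% of all genes tested were higher and 4.74% lower at an unadjusted p below 0.05. Without overlap, 11.4% were higher and 8.49% lower. Of 15 tested activators and clearance factors, such as furin, plasmin and its regulators, 0 were at an unadjusted p below 0.05 and the median log2 fold change was -0.32. The lowest p was that of Bsg, the surface inducer of MMP production, with 427, 308 and 439 CPM in the controls and 277, 295 and 335 CPM in PB-MP, at -0.37 ± 0.19 (SE). Of 8 tested partners of ADAM10 and ADAM17, the tetraspanins and rhomboid proteins that carry these sheddases to the surface, 0 were at an unadjusted p below 0.05 and the median was -0.15. Tspan17, a tetraspanin partner of ADAM10, had 3.10, 2.92 and 3.05 CPM in the controls and 1.51, 2.25 and 2.44 CPM in PB-MP, without overlap, at -0.55 ± 0.26.

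Of 16 tested ADAM substrates, 1 was lower and 1 higher at an unadjusted p below 0.05, with a median log2 fold change of -0.09, and Areg had no reads in any library. Tgfa, an EGF receptor ligand released by ADAM17, had 21.7, 22.4 and 21.4 CPM in the controls and 13.5, 15.0 and 10.9 CPM in PB-MP. Its groups lay far apart relative to their spread, at a log2 fold change of -0.74 ± 0.18 (SE, edgeR adjusted p of 0.241). Mertk, a macrophage receptor for dying cells that ADAM17 cleaves, had 9.69, 12.7 and 11 CPM in the controls and 14.5, 15.6 and 15.2 CPM in PB-MP, at 0.44 ± 0.18 (edgeR adjusted p of 0.404).

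Of 17 tested matrix substrates, 0 were higher (background 7.35%) and 4 lower (background 4.74%) at an unadjusted p below 0.05. Their median log2 fold change was -0.32, with 14 estimates below 0. Acan, Bcan, Ncan and Comp, the cartilage and brain substrates of the ADAMTS enzymes, had no reads in any library. Those with the lowest p were chains of collagens I and III. Col1a1 had 5.53, 3.99 and 4.39 CPM in the controls and 2.45, 2.71 and 1.61 CPM in PB-MP, at a log2 fold change of -1.04 ± 0.28 (SE, edgeR adjusted p of 0.255). Col1a2 had 12.8, 8.48 and 9.30 CPM in the controls and 4.37, 6.87 and 3.60 CPM in PB-MP, at -1.04 ± 0.30 (edgeR adjusted p of 0.287). For Col3a1, the values were 20.8, 18.3 and 14.6 CPM in the controls and 9.31, 12.8 and 8.14 CPM in PB-MP, at -0.82 ± 0.24 (edgeR adjusted p of 0.294). These 3 chains were without overlap between the diets, and PB-MP 2 was the PB-MP library nearest the controls in each. Col5a1, another fibrillar collagen chain of the list, overlapped between the diets, at -0.05 ± 0.30.

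Markers of the cells that make these genes were read beside them, with the same background shares of all genes tested as for the lists above. In bulk RNA, fewer cells of a type and less RNA per cell cannot be told apart. The 8 stellate cell markers summed to 434 to 446 CPM in the controls and to 224, 438 and 361 CPM in PB-MP 1, 2 and 3. Here too PB-MP 2 lay within the control range, as it did for the summed TIMPs. Of the 8, 1 was lower at an unadjusted p below 0.05 (Des, at a log2 fold change of -0.66 ± 0.27), 6 had estimates below 0 and none was without reads. The 2 with estimates above 0 were Lrat, at 0.32 ± 0.39, and Hgf, at 0.73 ± 0.56 (SE), both with overlap. The 7 portal fibroblast and myofibroblast markers summed to 17.3 to 23.8 CPM in the controls and 14.8 to 21.7 CPM in PB-MP, with 1 lower at an unadjusted p below 0.05. The part of either cell type in the values of Timp2, Adamts2, Mmp2 and the collagens was not tested.

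Neutrophil markers, which bear on Mmp9 and Mmp8, summed to 1.17 to 1.74 CPM in the controls and 3.04 to 5.48 CPM in PB-MP. The 4 of 6 that could be tested were all higher in PB-MP without overlap (background 11.4%) and 3 of them at an unadjusted p below 0.05 (background 7.35%). The defining markers Ly6g and Mpo, however, had no reads in any library. The 7 Kupffer cell and macrophage markers summed to 95 to 127 CPM in the controls and 124 to 258 CPM in PB-MP, with the top value in PB-MP 3. All 7 had estimates above 0 and 3 were at an unadjusted p below 0.05. B and plasma cell markers were lower without overlap in sum, 17.9 to 56.1 CPM in the controls against 8.80 to 13.2 CPM in PB-MP, with 2 of 5 lower at an unadjusted p below 0.05. T and NK cell markers summed to 4.35 to 5.87 CPM in the controls and 3.19 to 3.71 CPM in PB-MP. Of these 6, 2 were lower at an unadjusted p below 0.05 (background 4.74%) and 5 had estimates below 0. The other 1, the NK cell marker Klrb1c, was higher in PB-MP without overlap, at a log2 fold change of 0.65 ± 0.37 (SE). The part of these cells in the values of Mmp9, Mmp8, Adamts6, Adamts10 and Adam33 was not tested.

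The 7 hepatocyte markers summed to 62631 to 79729 CPM in the controls and 67170 to 78038 CPM in PB-MP, with 0 of 7 at an unadjusted p below 0.05 and a median log2 fold change of 0.03. These high levels match the label of liver. The sums of the sinusoidal endothelial, cholangiocyte, mesothelial, monocyte and dendritic cell, erythroid and adipocyte markers also overlapped, although 2 of the 3 tested adipocyte markers were lower at an unadjusted p below 0.05 and Lep had no reads. For monocytes and dendritic cells the sum was 22.2 to 47.9 CPM in the controls and 30.0, 22.6 and 128 CPM in PB-MP 1, 2 and 3. The high sum of PB-MP 3 came from Lyz2, at 125 CPM there, while the next highest marker, Ly6c2, had 1.25 CPM. Of the 6 markers, 3 had estimates above 0 and 3 below.

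**Figure D5:**
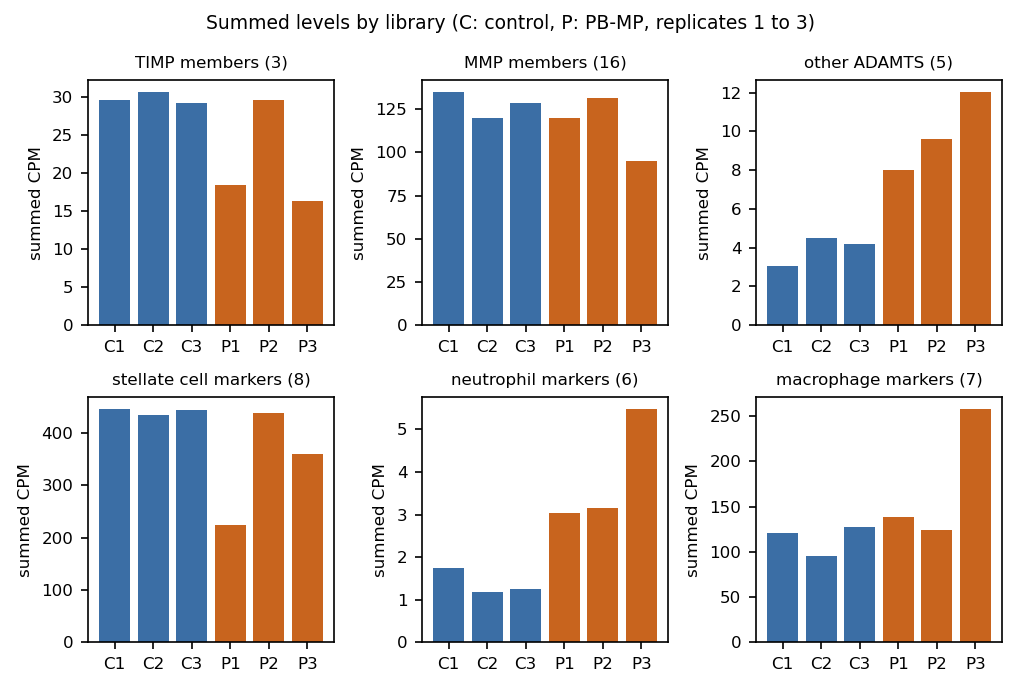
Summed CPM in each library (C1 to C3 control, blue; P1 to P3 PB-MP, orange; bars start at 0) of the 3 TIMP genes, the 16 MMP genes, the 5 other ADAMTS genes and the stellate cell, neutrophil and macrophage markers, with the number of genes in brackets. The sums of the other ADAMTS genes and of the neutrophil markers lie higher in every PB-MP library. PB-MP 2 matches the controls for the TIMPs and the stellate cell markers, and PB-MP 3 leads the macrophage markers.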

How the data were processed

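Liver poly(A) RNA was sequenced as 6 libraries, built with a directional kit per the labels' protocols. bcl2fastq and the build GRCm39 appear in the submitters' processing notes. Aligner, counter, annotation and strand setting are not given in the sources used. Raw counts of reads, 1 row per gene symbol and not normalized, were deposited by the authors per sample and as 1 table, and both were identical for all 6 samples. PB-MP was compared with control. Genes were kept by filterByExpr (minimum count 10, minimum total count 15), scaled by TMM and tested in edgeR 4.0.16 (R 4.3.3) by its quasi-likelihood method, with Benjamini-Hochberg adjustment over the 17871 genes tested and a threshold of 0.05. The SE was derived from the log2 fold change and its F value, and the 95% interval from the t distribution of the fit. CPM denotes counts scaled by library size and TMM factor. Exon lengths, overlaps and coding sequences came from GENCODE M21 (GRCm38), not the authors' build, so coordinates are GRCm38 throughout. Alternatives were RLE scaling, library size only, no filter, a mean of at least 1 CPM, DESeq2 1.42.0, limma-voom (limma 3.58.1), a replicate block and left-out libraries, and, chosen after seeing the data, ribosomal RNA and mitochondrial rows left out.

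The members and gene lists were chosen with earlier results of these data known. Values are given for a fixed set of members, which includes Adamts6, the member of lowest p. They are also given for members at an unadjusted p below 0.05 (up to 8 per direction), for the 6 of highest CPM per kb and for those any alternative called. In each list of activators, partners or substrates, up to 3 genes at an unadjusted p below 0.05, or else the gene of lowest p, are named. Other genes named with values were chosen after their values were seen. The fits were tested on simulated data. No library pair agreed within sampling noise (chi-square per degree of freedom of at least 181). Intervals and floors cover counting error or the spread of these libraries only.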

Additional observations from a re-analysis of the deposited data

How the results depend on the processing

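Among values for the members named by the rule above, not all those tested, 237 kept direction and side of the threshold and 27 changed sign. Another 2 passed only in DESeq2 (Adamts6 1.81, Adamts10 1.55). The main fit called 0 genes, so there was no call to lose, and keeping the side of the threshold says little. Of the counts, medians and summed levels, 105 stayed within a set margin of the main fit and 10 moved beyond it. For all genes the count called was 513 by DESeq2 (361 higher), 2 without control replicate 2 and PB-MP replicate 3, and 0 to 1 with single libraries left out; for members it was 2 by DESeq2 and 0 to 0 with single libraries left out. Members at an unadjusted p below 0.05 numbered 4 to 6 (all genes 7.92% to 17.8%) with single libraries left out. Members without overlap then numbered 13 to 21 of the 43 or 44 tested (all genes 25.8% to 39.9%). The second was 5 at a mean of at least 1 CPM (24 tested, all genes 18.1%). It was 24 of 43 without both libraries, a share below that of all genes (59.3%). The members' median was -0.20 to 0.05 with single libraries left out and 0.14 with library size only, where the median of all genes shifted from 0.01 to 0.23, a difference of -0.09 against -0.08 as reported. Summed log2 ratios with single libraries left out were -0.78 to -0.32 for TIMPs, -0.25 to -0.03 for MMPs, -0.18 to 0.34 for ADAMs and 0.05 to 0.31 for ADAMTS genes. Scaling by library size only leaves out the TMM factors, which were lower in every control than in any PB-MP library, and so raises PB-MP relative to control. It gave -0.26 for TIMPs (reported -0.47), 0.068 for MMPs (reported -0.15) and 0.42 for ADAMTS genes (reported 0.20). Leaving out both libraries gave 0.49 for ADAMs (reported 0.04). The causes of the difference in factors and of the other shifts were not tested.

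Sign changes concerned estimates near 0. With library size only they were Mmp14 0.21, Mmp19 0.0724, Adam10 0.22 and Adamts13 0.19; with a mean of at least 1 CPM, Mmp14 0.0211, Adam10 0.00995 and Adamts13 0.0104; with ribosomal RNA and mitochondrial rows left out, Mmp14 0.021, Adam10 0.0052 and Adamts13 0.0071; with no filter, Mmp14 0.0027; with DESeq2, Mmp14 0.00059; and without both libraries, Mmp14 0.30 and Adam10 0.39. With single libraries left out the ranges were -0.24 to 0.23 for Mmp14, -0.22 to 0.18 for Adam10, -0.027 to 0.21 for Adam17, -0.24 to 0.26 for Adamts1, -0.20 to 0.13 for Adamts13 and -0.21 to 0.53 for Adam9.

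With the replicate block, edgeR called 0 genes (1836 at an unadjusted p below 0.05) and 0 members (6 at an unadjusted p below 0.05), with a median of -0.12. Same-numbered libraries deviated with correlations of -0.12, 0.15 and 0.12, so the numbers were not taken to pair the libraries. With 3 libraries a group, the median SE of a member was 0.34 on the log2 scale, and 28 of 43 intervals reached beyond -1 or 1. The 19 tested members below 1 CPM and the 13 untested ones set the depth limit.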
